A study of Mus musculus with 6 samples.

Results

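The natriuretic peptide system of the mouse heart was read here from 9 genes, grouped by role: the peptides (Nppa and Nppb), the enzymes that cut, modify or degrade peptides (Corin, Furin, Pam and Mme) and the receptors (Npr1, Npr2 and Npr3). The 9 are among 18193 genes with a single symbol on the array, and they were chosen by name, with earlier results of these data known. They were read by 12 probe sets. Npr3 had 3 probe sets and Mme had 2, and the other 7 genes had 1 each. All 12 passed the filter on dim signals described below. Transcript levels were measured in 6 hearts of male mice under basal conditions, 3 from mice labelled ERRα-null (KO below, a label and not a measured genotype) and 3 from mice labelled wild type (WT). Strain and age are given as C57BL/6J and 2 to 3 months for all but WT 1, whose labels hold neither entry. The sources used here do not say how the deletion was made, in which cells it acts or whether hearts were taken whole, and no treatment is named for any mouse. Each heart had its own Affymetrix Mouse430_2 array.

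ANP and BNP, the products of Nppa and Nppb, are hormones released by heart muscle when its walls are stretched, and they promote salt and water loss and widen blood vessels. In adult mice Nppa is transcribed mainly in atrial myocytes and returns in the ventricle under load, which makes both genes common markers of cardiac stress. Corin, a membrane protease of cardiac myocytes, cuts the ANP precursor, and Furin cuts the BNP precursor. Pam encodes the enzyme that amidates the end of many peptide hormones and is a prominent membrane protein of atrial secretory granules. Mme encodes neprilysin, which degrades natriuretic peptides. Npr1 encodes guanylyl cyclase A, the receptor for ANP and BNP. Npr2 encodes guanylyl cyclase B, the receptor for the C-type peptide, and Npr3 encodes the clearance receptor, which removes all of these peptides from the circulation. ERRα, the estrogen-related receptor encoded by Esrra, is an orphan nuclear receptor that controls genes of mitochondrial energy use.

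2 hearts need a remark before any result. Esrra gave a signal of 180.1 in the library labelled KO 1, 24.0 in KO 2 and 18.0 in KO 3, against 368.1, 394.4 and 349.1 in WT. KO 1 thus kept 48.6% of the WT mean, and its signal goes against its label, while KO 2 and KO 3 were at 6.48% and 4.86%. A second Esrra probe set, dim and below the filter, gave 8.3, 0.5 and 1.3 in KO 1 to 3. In WT 1 to 3 it gave 11.5, 8.3 and 9.1, so KO 1 equalled WT 2. The sources used here do not place either probe set relative to the deletion. For WT 1 a comment in the array header and the sample title number the mouse differently, and the title was used. WT 1 was also the brightest array, with a median signal of 16, against 12.4 to 13.7 on the other 5. The ventricular light chain Myl3 was bright in every heart (8100 to 8650 in KO and 9128 to 9496 in WT). Each result below is given with all 6 hearts, and the results without KO 1 or WT 1 are given where the number of genes passing the test differs.

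The peptide genes are shown first by the sequence around their starts, because they are neighbours that were both higher in KO hearts. Nppb and Nppa lie next to each other on chromosome 4, with 0 genes between them in the gene table of the GRCm38 assembly. The RefSeq windows (GRCm38.p6, plus strand) run from 250 bases before to 50 bases after the annotated start of a transcript, at chr4:148000472-148000771 for Nppa and chr4:147985650-147985949 for Nppb. Capitals mark matches on either strand to 3 short motifs: GATAA, bound by GATA factors, TATAAA, the TATA box, and CATTCC, the M-CAT element bound by TEAD factors.
Nppa: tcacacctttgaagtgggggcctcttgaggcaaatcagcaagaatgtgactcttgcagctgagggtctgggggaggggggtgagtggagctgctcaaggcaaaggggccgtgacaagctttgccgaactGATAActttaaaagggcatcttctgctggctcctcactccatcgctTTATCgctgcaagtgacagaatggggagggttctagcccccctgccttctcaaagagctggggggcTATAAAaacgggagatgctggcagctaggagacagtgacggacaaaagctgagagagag
Nppb: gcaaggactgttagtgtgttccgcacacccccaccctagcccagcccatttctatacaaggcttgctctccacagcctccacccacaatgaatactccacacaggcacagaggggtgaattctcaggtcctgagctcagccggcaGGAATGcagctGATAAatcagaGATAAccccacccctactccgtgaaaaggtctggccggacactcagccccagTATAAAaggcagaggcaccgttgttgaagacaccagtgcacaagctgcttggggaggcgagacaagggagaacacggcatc
Both windows held 2 matches to GATAA and 1 to TATAAA, which do not overlap each other. Over all 32851 promoter windows of the table, 25.4% held GATAA and 13.6% held TATAAA. Nppb alone of the pair held CATTCC (14.7% of all windows). Nppa alone held AAGTG, a core bound by NKX2-5 (2 matches, 46.4% of all windows), and GGTGTGA, a T-box core (1 match, 3.98%). The extended core site of ERR receptors, AAGGTCA, was in 4.72% of all windows and in 0 of the 13 windows of the 9 genes. A match is only a match of letters, and the lack of one concerns these windows alone.

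**Figure D1:**
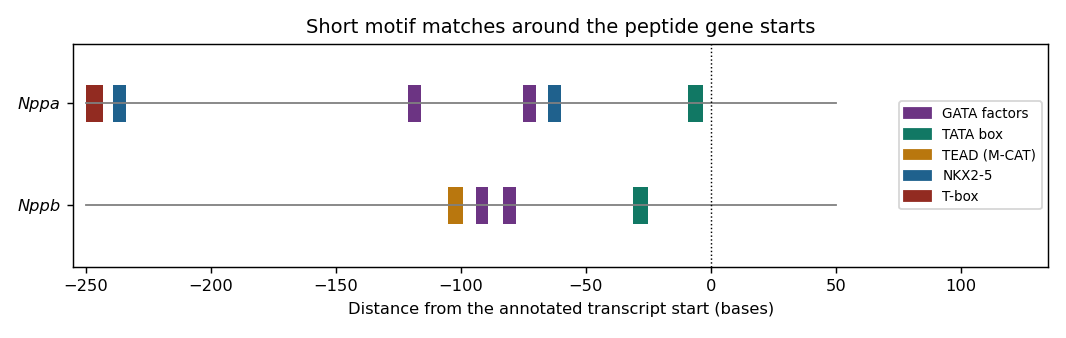
Matches to 5 short motifs on either strand in the windows of Nppa (upper line) and Nppb (lower line), by distance in bases from the annotated transcript start (dotted line). Each block covers the letters of 1 match, and both lines hold 2 GATA blocks and 1 TATA block.

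Both peptide genes were higher in KO hearts. Nppa, the ANP gene, gave signals of 7170, 6869 and 7401 in KO 1 to 3, against 2116, 1621 and 5114 in WT 1 to 3. The 3 KO values lay within a narrow band above every WT heart, while WT 3 lay far above the other WT hearts and nearer to the KO band. The means were 7147 ± 267 in KO and 2951 ± 1890 in WT (SD, n = 3 each), so the spread among WT hearts was 64.1% of their mean, against 3.73% among KO hearts. On the scale of log2(signal + 16) the difference was 1.45 (SE 0.176), a fold of 2.74 with a 95% interval from 2.14 to 3.50. It passed the test (limma with an intensity trend, two-sided, Benjamini-Hochberg adjusted p = 4.54e-08 over 12946 genes). The interval draws mostly on a variance shared between genes and little on the spread among these WT hearts. On the log2 scale it ran from 1.10 to 1.81 here, from 0.80 to 2.11 without a filter and from 0.067 to 2.84 with robust variance. The highest signals on these arrays were 9748 to 10890, and whether a signal as high as that of Nppa in KO is compressed was not tested.

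Nppb, the BNP gene, gave 1582, 1846 and 1637 in KO 1 to 3, against 1170, 856 and 1292 in WT 1 to 3. The groups did not overlap, and the WT heart with the highest Nppa, WT 3, also had the highest Nppb of its group. The means were 1688 ± 139 in KO and 1106 ± 225 in WT (SD, n = 3 each). The difference on the log2 scale was 0.62 with an SE of 0.140, a fold of 1.54, and limma gave it an adjusted p of 0.00455. The difference for Nppb was less than that for Nppa on the same scale; the difference between the genes was not tested.

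In all, 3 of the 9 genes passed the test, Nppa and Nppb higher and Pam lower in KO, beside 2.97% of all 12946 genes (1.78% higher and 1.18% lower). Ranked by difference over all genes tested, Nppa stood at rank 27 from the highest and Pam at rank 17 from the lowest. The groups did not overlap for 5 of the 9, with KO hearts higher for Nppa, Nppb, Corin and Npr3 and lower for Mme, beside 16.2% of all genes (6.81% with KO higher and 9.41% with KO lower). The median log2 difference of the 9 was 0.24, against -0.028 over all genes tested. The calls depended on the filter, on the variance model and on single hearts. Without a filter 0 of the 9 passed by limma, beside 0.363% of all genes called (Nppa at an adjusted p of 0.0739), and 6 had an unadjusted p under 0.05, beside 9.89% of all genes. With robust variance, over the same genes and hearts, Nppa (adjusted p = 0.356) and Pam (0.397) did not pass, and without an intensity trend Nppb (0.113) and Pam (0.107) did not. With signals floored at 16 and no pseudocount 0 of the 9 passed (Nppa at 0.397). In the fit over all 45037 probe sets 0 of the 12 passed, beside 0.102% called, and 6 had an unadjusted p under 0.05, beside 8.09%. Without WT 1, 0 of the 9 passed, beside 0.981% of all genes called (Nppa at 1.30 with an adjusted p of 0.105, and Nppb at 0.67 with one of 0.0675), and 6 had an unadjusted p under 0.05, beside 14.9%. Without KO 1 Nppa (1.45), Nppb (0.67) and Pam passed again, beside 3.93% of all genes. Nppb also did not pass without KO 2 (adjusted p = 0.0582) or WT 2 (0.115). By the exact permutation test over hearts, two-sided, the smallest p that 3 against 3 hearts allow is 0.10, and Nppa, Nppb, Corin, Mme and Npr3 each had that value.

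**Figure D2:**
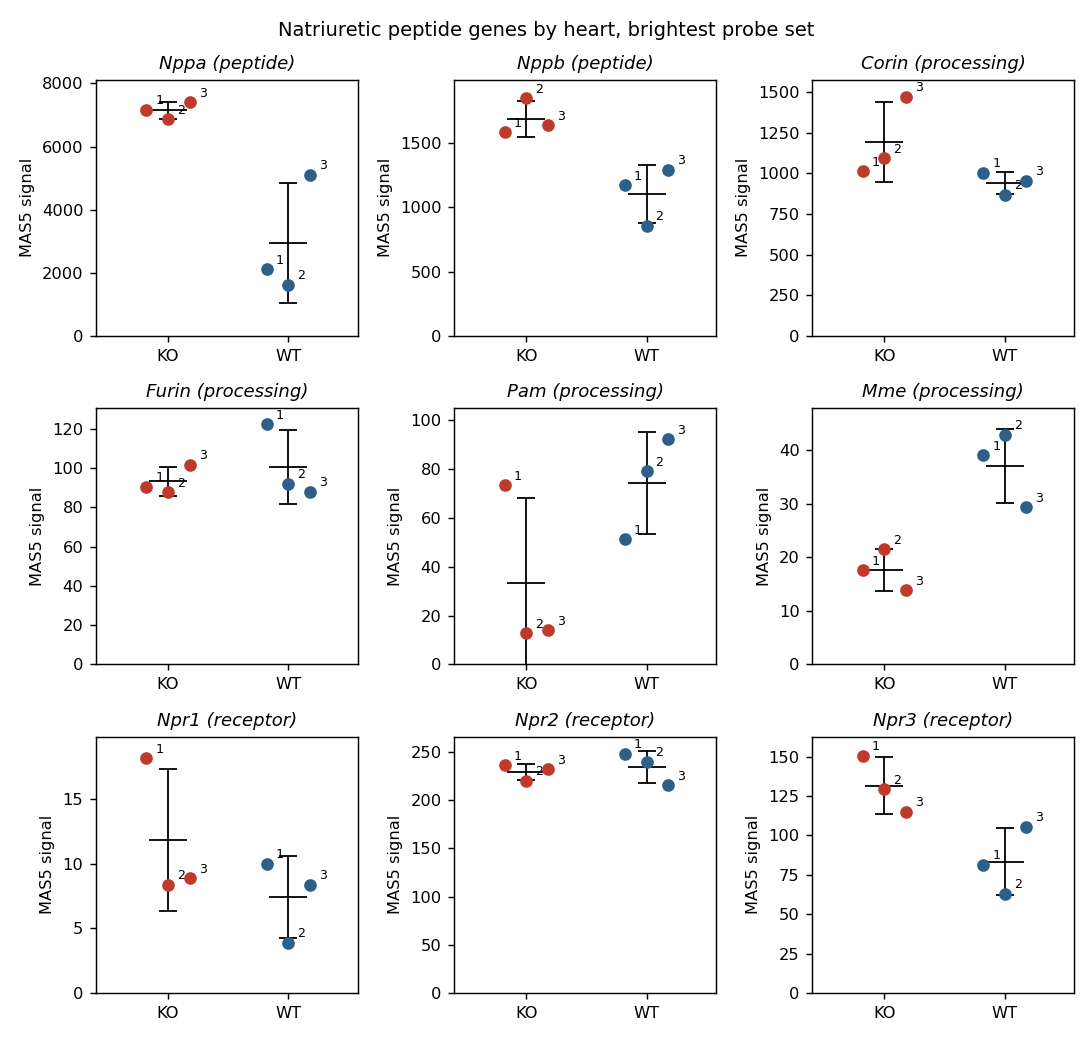
MAS5 signal (linear axis from 0) of each gene in every heart, KO left and WT right, with the heart's number beside its point; bars give the mean and SD (n = 3). Nppa, Nppb, Corin and Npr3 had all KO hearts above all WT hearts, Mme had all below, and KO 1 had a Pam signal of 73.4 within the WT range; the lower SD bar of Pam in KO runs below the axis.

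Among the processing enzymes Pam was called lower in KO, with low signals in KO 2 and KO 3 alone, while Corin, Furin and Mme did not pass. Corin, the ANP-cutting protease, gave 1011, 1092 and 1470 in KO 1 to 3, against 1004, 869 and 954 in WT 1 to 3. The groups did not overlap, but KO 1 lay close to WT 1, and only KO 3 stood apart. The log2 difference was 0.32 (SE 0.144, limma adjusted p = 0.327), and without KO 3 it was 0.16. Furin, the protease that cuts the BNP precursor, gave 90.6, 87.8 and 101.8 in KO, against 122.3, 92.0 and 87.9 in WT. These values overlapped, with a difference of -0.08 and a 95% interval from -0.43 to 0.26 on the log2 scale.

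Pam, the amidating enzyme, gave 73.4, 12.7 and 13.9 in KO 1 to 3, against 51.3, 79.0 and 92.2 in WT 1 to 3. The library labelled KO 1 lay inside the WT range, and KO 2 and KO 3 were at 17.1% and 18.7% of the WT mean. KO 1 was thus the KO heart with the highest signal for both Pam and Esrra. The log2 difference over all hearts was -1.06 (SE 0.239, limma adjusted p = 0.00455), and without KO 1 it was -1.59 (adjusted p = 1.51e-11, in a fit whose variance was wholly shared between genes). The call over all hearts was lost with quantile normalization (-1.06, adjusted p = 0.175) and without WT 1 (-1.25, adjusted p = 0.188). For so dim a gene the size also follows the pseudocount, with -1.56 at a pseudocount of 1 and -0.55 at 64, and the gene passed at both. A single probe set read this gene here, so the split among KO hearts has no second signal beside it.

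Mme, the neprilysin gene, gave 17.6, 21.5 and 13.8 in KO 1 to 3, against 39.0, 42.8 and 29.3 in WT 1 to 3. All KO hearts lay below all WT hearts, KO 1 included. The log2 difference was -0.65 (SE 0.195), with an adjusted p of 0.0506 in limma, just beyond the threshold of 0.05. It was -1.03 with a pseudocount of 1 and -0.31 with 64, and did not pass with either. Its dimmer probe set gave 19.0, 1.4 and 3.0 in KO and 31.0, 25.4 and 14.7 in WT, where KO 1 lay within the WT range and KO 2 and KO 3 below it (log2 difference -0.79). As the mean of both probe sets Mme was at -0.72 and passed (adjusted p = 0.0382).

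No receptor gene passed the test. Npr3, the clearance receptor, gave 150.5, 129.2 and 114.9 in KO 1 to 3, against 81.5, 63.1 and 105.6 in WT 1 to 3, at its brightest probe set. The groups did not overlap, and WT 3 came close to KO 3. The log2 difference was 0.58 (SE 0.178, limma adjusted p = 0.059), and it passed without WT 3 (0.74, adjusted p = 0.0222) but was at 0.49 without KO 1 (adjusted p = 0.213). The second probe set of Npr3 gave 66.0, 31.0 and 33.6 in KO and 37.1, 22 and 34.9 in WT, which overlap. The third gave 26.0, 15.5 and 20.0 in KO and 7.3, 13.2 and 14.8 in WT, which do not. Their log2 differences were 0.30 and 0.39.

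Npr2, the receptor for the C-type peptide, was the steadiest of the set, with 236.2, 220.4 and 231.9 in KO and 248.2, 239.9 and 215.8 in WT. Its difference was -0.03 with a 95% interval from -0.36 to 0.30 on the log2 scale, which holds folds from 0.782 to 1.23. Npr1, the ANP and BNP receptor, gave 18.2, 8.4 and 8.9 in KO and 10, 3.9 and 8.4 in WT. These signals lie around the filter limit of 8.17, and no detection calls were at hand to set them against background. The 95% interval of the difference ran from -0.24 to 0.72, which leaves room for a change of Npr1 in either direction. The difference itself was 0.24, and 0.08 without KO 1, 0.61 with a pseudocount of 1 and 0.08 with 64.

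**Figure D3:**
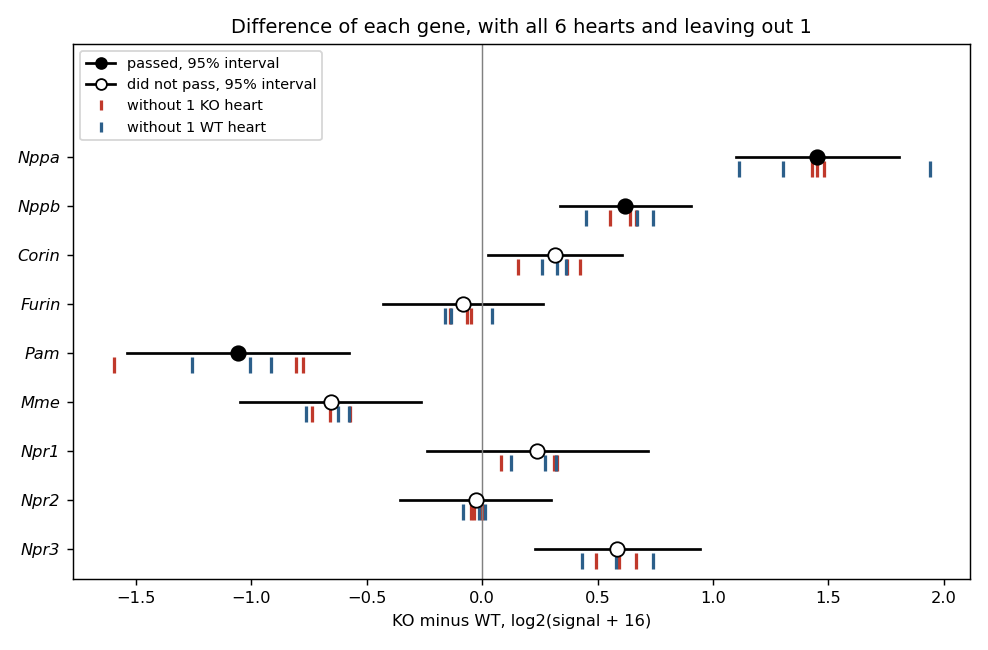
KO minus WT difference on the log2(signal + 16) scale for each gene, with its 95% interval, not adjusted for the number of genes (filled circles passed the test, open circles did not). Ticks below give the difference without 1 KO heart (red) or 1 WT heart (blue); without WT 3 Nppa moves to 1.94, and without KO 1 Pam moves to -1.59.

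Few other genes of the pathway passed the test. Of 19 tested genes of cGMP signalling, the second messenger path of Npr1 and Npr2, 1 rose, 0 fell and 18 did not pass (median log2 difference 0.044, against -0.028 over all genes). The 1 that rose was Rgs2, a regulator of G protein signalling that cGMP-dependent kinase activates, with 380.9, 369.4 and 543.1 in KO and 329.9, 282.7 and 212.0 in WT (log2 difference 0.62, limma adjusted p = 0.0297). It did not pass without KO 3, WT 1 or WT 3, without a filter, without an intensity trend, as the mean of probe sets or with the floor. Pde1c, a phosphodiesterase, was at -0.40, Gucy1a1, a subunit of the soluble guanylyl cyclase, at 0.36 and Pde1a at 0.34, and none of them passed. Of 7 tested genes of other ligands and ligand handling 0 passed by limma, with 2 at an unadjusted p under 0.05, which 12.5% of all genes had. These were Prep, a prolyl peptidase, with 99.9, 82.6 and 77.2 in KO and 196.5, 112.5 and 121.7 in WT, and Dpp4, a peptidase that trims BNP, with 28.0, 33.0 and 42.2 in KO and 19.0, 18.2 and 10.5 in WT. Their groups did not overlap (adjusted p = 0.0531 and 0.0568), and both passed without KO 1 (Prep at -0.70 and Dpp4 at 0.75). Nppc, the gene of the C-type peptide, was below the filter.

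Of 26 transcription regulators of Nppa and Nppb 0 passed by limma (median -0.049). An unadjusted p under 0.05 was found for 4, a share near the 12.5% of all genes, and these are given by their values alone. They were Tbx2 (-0.59), a T-box repressor of chamber genes, Hdac9 (-0.48) and Hdac4 (-0.38), class IIa deacetylases that restrain MEF2, and Tbx20 (0.39), a T-box factor of the myocardium. Tbx2 gave 9.8, 6.2 and 13.1 in KO and 17.0, 27.6 and 23.1 in WT, without overlap. Among 11 genes of load and the fetal program, from which Nppa and Nppb were left out, 3 rose, 1 fell and 7 did not pass (median -0.040). Ccn2, a matrix-associated growth factor, had a log2 difference of 1.45, the β-myosin gene Myh7 one of 0.78 and the stretch-responsive Ankrd1 one of 0.41. Acta1, the skeletal actin that usually accompanies Nppa in overload, fell, with 745.4, 1177 and 1088 in KO and 1700, 1452 and 1741 in WT (log2 difference -0.71, limma adjusted p = 0.00124). Without WT 1, Ccn2 alone of the 11 passed. With quantile normalization 2 rose and 1 fell. The part of load in the Nppa and Nppb differences was not tested.

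**Figure D4:**
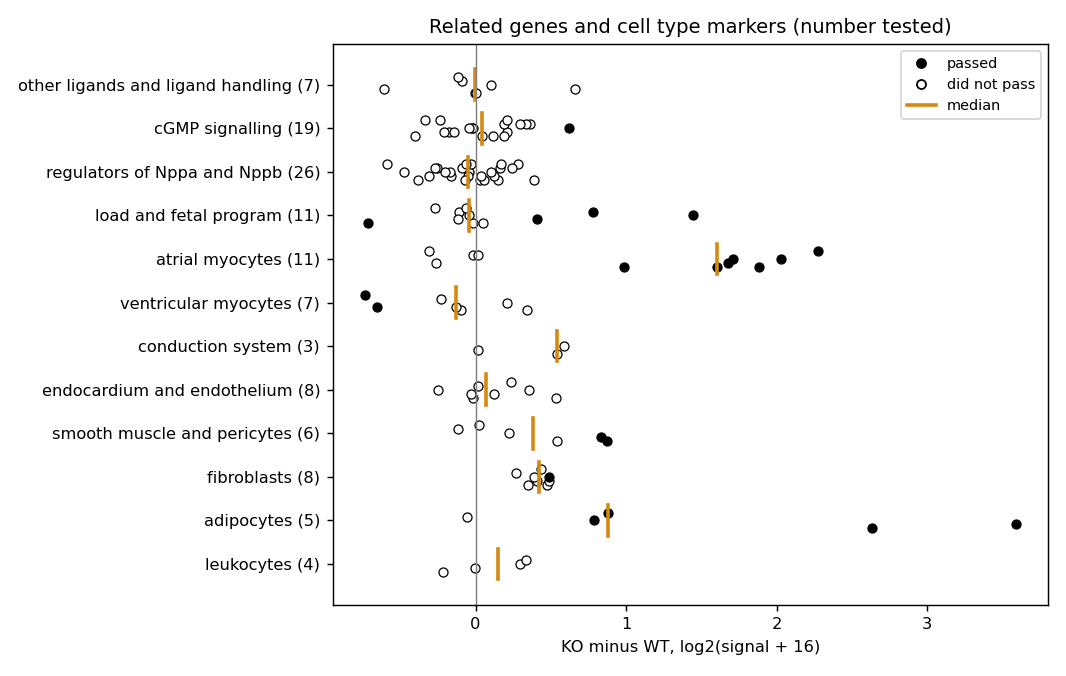
KO minus WT difference on the log2(signal + 16) scale of each tested gene (points) in 4 lists of related genes and 8 lists of cell type markers, with the number tested in brackets; filled points passed the test and the bar is the list's median. Atrial myocyte markers had a median of 1.60 and ventricular markers one of -0.13.

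Most markers of atrial myocytes were higher in KO hearts, as were the peptide genes. Of 11 atrial markers 7 rose, beside 1.78% of all genes, 0 fell and 4 did not pass (median log2 difference 1.60). Without WT 1, 4 passed, and without KO 1, 7 did. With robust variance 3 passed (Dkk3, Bmp10 and Stard10), and with the floor 0 did. The median was 0.87 with a pseudocount of 64, 0.99 as the mean of probe sets and 0.14 over every probe set of the 11 genes. The 4 that did not pass were Kcnj5 (-0.31, all KO hearts below all WT hearts), Clu (-0.26), Kcnj3 (-0.02) and Nr2f2 (0.02), the first 2 being a potassium channel subunit and the secreted chaperone clusterin. Sln, the atrial inhibitor of the calcium pump, gave 2455, 2215 and 1594 in KO 1 to 3, against 317.9, 233.1 and 924.1 in WT 1 to 3. Myl4, the atrial light chain, gave 2466, 2117 and 1731 in KO and 504.4, 420.0 and 1230 in WT. WT 3 was again the highest WT heart for both. Dkk3 (2.03) and Mybphl (1.88) were the others of smallest p. The summed signal of the 11 markers ran from 9592 to 13871 in KO and from 4993 to 8861 in WT, and none of them was at 0. The mean of the 11 on the log2 scale relative to WT was 1.26, 1.08 and 0.83 in KO 1 to 3 and -0.10, -0.43 and 0.53 in WT 1 to 3. Within the KO group the order of hearts by Nppa (KO 3 highest) was not the order by atrial markers (KO 1 highest), though the Nppa signals of KO hearts lay close together. Within the WT group both orders ran from WT 3 over WT 1 to WT 2. The part of atrial tissue in the Nppa and Nppb differences was not tested. In a sample of mixed tissue, more cells of a type and more RNA per cell cannot be told apart.

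**Figure D5:**
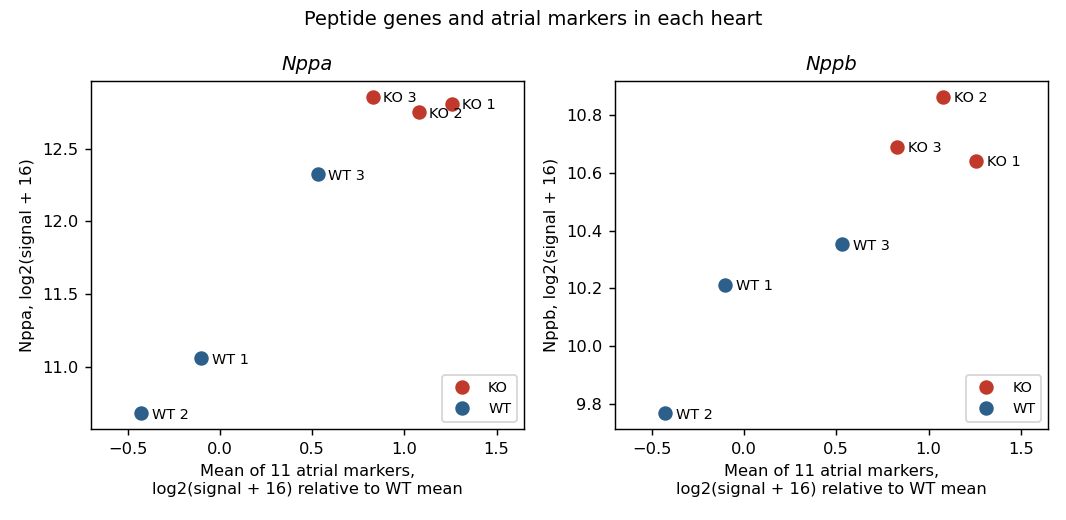
Log2(signal + 16) of Nppa (left) and Nppb (right) against the mean of 11 atrial markers relative to the WT mean, 1 point per heart. The 3 KO hearts sit at the upper right, WT 3 lies between them and the other WT hearts, and WT 2 is lowest on every axis.

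Other cell type markers were read in the same way. Of 7 ventricular markers 0 rose and 2 fell (median -0.13), Lbh with 316.0, 301.6 and 384.0 in KO and 700.8, 502.2 and 504.6 in WT, and Irx4, a ventricular homeobox factor, with 42.2, 49.0 and 54.0 in KO and 106.1, 77.0 and 74.9 in WT. The 5 ventricular markers that did not pass held 2 positive differences, among them Hey2 (0.34, all KO hearts above all WT hearts). The summed ventricular signal was 18064 to 19059 in KO and 19593 to 21399 in WT. Most of that sum was the light chains Myl2 (-0.10) and Myl3 (-0.13), which did not pass. Whether signals as high as theirs are compressed was not tested. Of 5 tested adipocyte markers 4 rose, beside 1.78% of all genes. Among them Adipoq gave 54.0, 390.7 and 323.0 in KO and 22.3, 15.7 and 17.0 in WT. The list's summed signal, which took in 1 more marker below the filter, was 3786 to 5588 in KO and 3398 to 4112 in WT. Most of that sum was Fabp4, the adipocyte marker that did not pass (3468, 3255 and 4040 in KO and 4025, 3323 and 3836 in WT). KO 1 had the lowest Adipoq of its group, whereas its atrial markers were the highest. Of 8 fibroblast markers 1 rose, Col3a1 (0.49), and all 8 had KO hearts above all WT hearts, beside 6.81% of all genes; the sums were 7794 to 9395 in KO and 5852 to 7065 in WT. Of 6 smooth muscle and pericyte markers 2 rose, Acta2 (0.87) and Cnn1 (0.84), and the groups overlapped for all 6. The sums of the 6 were 6126 to 8036 in KO and 4785 to 5718 in WT. Most of these sums was Acta2 and Rgs5 (0.02, did not pass). Npr3 is a known marker of the endocardium. Of 8 endocardial and endothelial markers 0 passed by limma and 2 had an unadjusted p under 0.05, beside 12.5% of all genes. Their sums were 1367 to 1659 in KO and 1198 to 1568 in WT. Of 3 tested conduction system markers 0 passed and 2 had an unadjusted p under 0.05, beside 12.5% of all genes. Their sums, which took in 2 more markers below the filter, were 68.0 to 89.4 in KO and 47.3 to 63.1 in WT. Of 4 tested leukocyte markers 0 passed and 0 had an unadjusted p under 0.05. Their sums, again with 2 more markers below the filter, were 1511 to 2163 in KO and 1367 to 2060 in WT. No marker with a probe set was at 0 in all hearts. Without WT 1 the numbers passed were 0 of the ventricular, 1 of the adipocyte and 0 of the smooth muscle markers, and without KO 1 they were 1, 4 and 1. Without KO 1 a conduction system marker, Shox2 (0.85), and a leukocyte marker, Ptprc (0.73), also passed. With quantile normalization 2 adipocyte, 4 fibroblast and 0 smooth muscle markers passed. The part of these cells in the differences of the peptide, enzyme and receptor genes was not tested.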

How the data were processed

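Biotin-labelled RNA of 3 KO and 3 WT hearts was hybridised, per the labels' protocols. The authors deposited a linear signal intensity for each probe set, made with MAS5 per the submitters' processing notes; the sources used here give neither a scaling target nor detection calls. Of 45099 probe sets 62 were controls, and 34945 others had 1 symbol in the platform table, 932 had several and 9160 had none. Values were used as deposited, as log2(signal + 16), which understates changes of dim genes. Probe sets under the 40th percentile of the mean over 6 arrays (a signal of 8.17) were left out and the brightest remaining one stood for its gene, over 12946 genes. Filter and probe sets were kept when a heart was left out. The comparison used limma 3.58.1 in R 4.3.3 (lmFit, then eBayes with an intensity trend), two-sided. Adjusted p-values are Benjamini-Hochberg over all genes, and 0.05 was the threshold. The estimate shared between genes weighed 45.6 degrees of freedom against a gene's own 4, so a p-value depends little on the gene's own spread. Every probe set of the 9 genes was also read in a fit over all non-control probe sets without a filter. On simulated data for this comparison (12946 genes), 71 of 100 genes changed by 1 on the log2 scale and 99 of 100 changed by 2 were called, with 10 unchanged genes called.

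The 9 genes, the lists and the motifs were chosen with earlier results of these data known. Genes were named by rule: the 9 genes, Esrra, up to 4 genes of smallest p in each list, and for Nppa and Nppb the 5 genes of highest correlation, skipping clone names. A few further genes of the lists were named beside these. The labels number mice within a genotype, and no statement ties equal numbers. The sources used here do not say whether hearts came from separate litters. In the main fit p-values and intervals draw mostly on a variance shared between genes. Only in small part do they draw on how much the gene varied from heart to heart. No pair of arrays was identical (0 pairs). Promoter windows are from RefSeq. Alternatives were other pseudocounts, scalings, filters, probe set rules, variance models, weights for arrays, a block for the mouse number and leaving out hearts; leaving out WT 1 and KO 1 together and a floor were added after seeing the data. The number of arrays limits the precision.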

Additional observations from a re-analysis of the deposited data

How the results depend on the processing

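Directions held for Nppa, Nppb, Corin, Pam, Mme and Npr3 in all 21 alternatives run and for Npr1 in all 20, while calls did not. Other filters, reading every probe set, other variance models and the block for the mouse number cannot change these differences. Their direction was fixed there, as it was with the mean of probe sets for genes read by 1. Causes were not tested unless given. Nppa passed in 16 of 21 alternatives, Nppb in 15, Pam in 13, Mme in 5, Npr3 in 4, and Corin, Furin, Npr1 and Npr2 in 0. With no filter 0 of the 9 passed, with Nppa at 1.45 (adjusted p = 0.0739), Nppb at 0.62 (0.127) and Pam at -1.06 (0.326), and 66 genes passed in all (48 higher, 18 lower). With robust variance Nppa (1.45) and Pam (-1.06) did not pass and Mme (-0.65) and Npr3 (0.58) did. With no intensity trend Nppb (0.62) and Pam (-1.06) did not, 1 of the 9 passed, and 171 genes passed (114 higher, 57 lower). Pam did not pass with quantile normalization (-1.06), median centring (-1.04) or cyclic loess (-1.05), where Npr2 was at 0.0057. A filter at the 60th percentile called 5 of the 9, with Mme at -0.65 and Npr3 at 0.58, and Mme passed as the mean of probe sets (-0.72). With array weights Npr3 was at 0.57 and passed, Furin was at 0.0018, and 610 genes passed (434 higher). With a floor of 16 and no pseudocount 0 genes passed (0 higher, 0 lower, 0 of the 9), with Nppa at 1.46, Nppb at 0.63 and Pam at -1.44, in a fit where 591 genes were constant at the floor. Without WT 1 and KO 1 together Nppa was at 1.30 (adjusted p = 0.0621), Furin at 0.062, and 598 genes passed (431 higher).

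Leaving out 1 heart at a time gave 1.11 to 1.94 for Nppa, 0.45 to 0.74 for Nppb, 0.16 to 0.42 for Corin, -0.16 to 0.044 for Furin, -1.59 to -0.77 for Pam, -0.76 to -0.57 for Mme, 0.082 to 0.33 for Npr1, -0.083 to 0.011 for Npr2 and 0.43 to 0.74 for Npr3. From 0 to 5 of the 9 then passed, and 127 to 509 genes in all (105 to 301 higher, 22 to 208 lower). The lowest counts over all genes were those without WT 1, and the highest those without KO 1. Variance was wholly shared between genes in the fits without KO 1, without KO 2, without KO 3 and without WT 2.

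Samples with equal numbers did not stand out by deviating together (correlations across genes of 0.027, -0.016 and 0.029). Those of unequal numbers ran from -0.079 to 0.058. Deviations within a group of so few hearts balance each other, so these correlations cannot decide whether the numbers pair hearts. With the mouse number as a replicate block Mme passed (-0.65, adjusted p = 0.0471), and 412 genes passed.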

Other observations

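The genes whose pattern over the 6 hearts was most like that of each peptide gene are given as a description, with no test. All share the arrays, and the difference between the groups enters each correlation. For Nppa these were Stk26 (Pearson r 0.998, Spearman rho 0.943), Sphkap (0.989, 0.943), Cers2 (0.989, 0.771), Dvl2 (0.987, 1.00) and Aebp1 (0.983, 0.943), over 6 hearts. None of the 5 passed the test between groups. Stk26, a protein kinase of the MST family, gave 36.0, 34.1 and 35.5 in KO 1 to 3 and 20.9, 19.2 and 31.0 in WT 1 to 3. That WT 3 lay near the KO hearts follows from choosing the gene by its likeness to Nppa. Sphkap and Dvl2 were dim in every heart (3.6 to 16.3 and 2.0 to 16.4).

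For Nppb they were Lgals3 (r 0.990, rho 1.00), Stard10 (0.989, 0.943), Csrp2 (0.987, 0.943), Clip2 (0.987, 1.00) and Cfap20dc (0.983, 1.00). Lgals3, which encodes galectin-3, gave 140.0, 181.6 and 144.6 in KO and 53.0, 20.6 and 60 in WT, and rose (log2 difference 1.56). Stard10, one of the atrial markers, rose by 0.99 and Csrp2, a LIM domain protein, by 0.81. Clip2 and Cfap20dc stayed at 22.9 or less in every heart and did not pass. The 5 genes listed for Nppa and the 5 for Nppb had 0 in common.

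Of the 20 tested genes nearest to Nppa in the gene order of chromosome 4, other than Nppb, 0 passed by limma. An unadjusted p under 0.05 was found for 2, beside 12.5% of all genes, and log2 differences ran from -0.50 to 0.50. Of the 20 nearest to Pam on chromosome 1, 0 passed by limma and 1 had an unadjusted p under 0.05, beside the same 12.5%. Their differences ran from -0.39 to 0.42. These neighbours were looked up after the values of Nppa and Pam had been seen.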
